A study of Mus musculus with 11 samples.

Results

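The genes described here are members of the large families of transcription factors that pattern embryos and assign cell identity: the Hox, Pax, Lhx, Dlx, Nkx, Pou, Sox, Fox, T-box, Gata, Zic, Klf, Nfi and Mef2 genes, the Neurod, Neurog, Hes and Id genes of the helix-loop-helix class, and the nuclear receptors whose symbols begin with Nr. They were chosen by the start of the gene symbol alone, without Sox10, Pou3f1, Pou3f2, Zic1 and Klf6, which makes 178 probes for 175 genes among the 6856 probes and 6041 named genes of the array. Measurements came from the neocortex of C57BL/6 mouse embryos at embryonic day 18. Each of 11 two-colour arrays set total RNA of 1 null mutant embryo, described in the record as synaptically silent, against RNA pooled from wild-type embryos of the same strain, day and region. Arrays 1, 2, 6, 7, 8 and 10 had the mutant RNA labelled with the dye Cy3, the other 5 with Cy5. On arrays 1 and 6 one label field gives the wild-type RNA as day 14.

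Most of these factors bind DNA through a small number of protein folds and act largely by switching other genes on or off. In the developing neocortex, Pax6, Sox2, Hes1 and Hes5 belong to dividing progenitors, Neurog2 drives progenitors towards the fate of glutamatergic neurons, and Neurod1 and Neurod6 act in the neurons that follow. Dlx and Lhx6 genes belong to GABAergic interneurons, which arise outside the cortex and migrate in, while most Hox genes pattern the hindbrain, spinal cord and trunk and are not genes of the forebrain.

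Proteins of the Neurod and Neurog families bind the E-box, the letters CANNTG, and Id proteins, which cannot bind DNA, hold back the partners these factors need. Their promoters are shown because 5 genes of these families were among the members that rose. Each stretch runs 5′ to 3′ on the gene's strand over 300 bases around the start, from RefSeq on build GRCm38.p6, with E-boxes in capitals. Neurod6 lies at chr6:55681214-55681513 on the minus strand, Neurod1 at chr2:79456587-79456886 on the minus strand, Neurog2 at chr3:127632886-127633185 on the plus strand, Id2 at chr12:25096043-25096342 on the minus strand and Id3 at chr4:136143572-136143871 on the plus strand.
Neurod6: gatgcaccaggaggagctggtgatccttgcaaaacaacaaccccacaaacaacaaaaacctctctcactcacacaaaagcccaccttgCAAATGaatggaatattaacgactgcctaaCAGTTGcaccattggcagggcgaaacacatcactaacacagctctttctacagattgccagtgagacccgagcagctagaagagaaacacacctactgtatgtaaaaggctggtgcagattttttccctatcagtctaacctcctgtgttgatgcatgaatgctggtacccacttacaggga
Neurod1: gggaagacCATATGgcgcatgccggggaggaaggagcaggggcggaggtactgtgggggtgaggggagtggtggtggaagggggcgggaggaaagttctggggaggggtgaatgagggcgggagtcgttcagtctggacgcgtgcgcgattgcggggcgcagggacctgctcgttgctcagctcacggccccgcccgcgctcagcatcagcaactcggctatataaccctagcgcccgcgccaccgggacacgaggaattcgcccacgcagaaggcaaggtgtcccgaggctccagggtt
Neurog2: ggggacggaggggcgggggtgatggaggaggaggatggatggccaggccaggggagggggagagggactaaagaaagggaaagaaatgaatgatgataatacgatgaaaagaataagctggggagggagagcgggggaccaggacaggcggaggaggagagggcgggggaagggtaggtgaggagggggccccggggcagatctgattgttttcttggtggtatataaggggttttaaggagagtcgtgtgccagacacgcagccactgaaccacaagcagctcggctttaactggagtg
Id2: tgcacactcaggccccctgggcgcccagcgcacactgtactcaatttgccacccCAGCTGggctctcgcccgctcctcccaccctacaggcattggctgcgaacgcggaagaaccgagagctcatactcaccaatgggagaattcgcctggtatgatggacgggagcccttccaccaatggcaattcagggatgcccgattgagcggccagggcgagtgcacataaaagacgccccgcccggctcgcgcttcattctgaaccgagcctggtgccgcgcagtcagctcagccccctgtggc
Id3: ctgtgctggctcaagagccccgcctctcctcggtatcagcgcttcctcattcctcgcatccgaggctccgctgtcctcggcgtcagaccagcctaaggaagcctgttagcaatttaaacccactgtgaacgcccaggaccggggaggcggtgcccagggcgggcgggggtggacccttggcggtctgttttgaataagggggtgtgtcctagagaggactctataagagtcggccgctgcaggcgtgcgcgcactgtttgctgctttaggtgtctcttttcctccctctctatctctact
The Neurod6 window holds 2 E-boxes (CAAATG and CAGTTG), those of Neurod1 (CATATG) and Id2 (CAGCTG) hold 1 each, and those of Neurog2 and Id3 hold none. CANNTG reads the same on both strands, and 72.3% of all 32851 promoters of this length in the table hold it, against 70.3% of the 158 promoters listed for members. A match is no binding site, and a window without the letters says nothing of these factors. Member promoters held a median of 15.5 CG dinucleotides, against 7 over all promoters in the table.

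Values are the log ratios deposited by the authors, 1 per probe and array, read as log2 of null over wild type. That direction is likely rather than given. It rests on Xist, an RNA made from the inactive X of females, which lay below -1 on 6 of the 10 arrays that measured it (range -7.37 to 0.67), as male embryos set against a pool with females would give. The Y-linked Kdm5d does not settle it: its ratios ran from -0.86 to 1.34, and on the 4 arrays with Xist above 0 from -0.86 to 0.16. If the direction is the reverse, every sign below turns. Only ratios are at hand, so the level of a gene in the tissue and the defining markers of neocortex could not be checked, and fewer cells of a type cannot be told apart from less RNA per cell. The arrays held 4822 to 6316 values each. Array 4 had the fewest values and the widest spread over all probes. Its scaled median absolute deviation was 0.48, against 0.21 to 0.30 on the other arrays. An extreme value on array 4 is therefore no trait of a single gene. They did not all run alike, since Spearman correlations between arrays lay between -0.08 (arrays 9 and 10) and 0.70 (arrays 9 and 11). Array 10, labelled with the mutant in Cy3, correlated with the Cy5 arrays 3, 4 and 5 at 0.63, 0.35 and 0.45, and array 9, labelled with the mutant in Cy5, with the Cy3 arrays 1 and 7 at 0.53 and 0.52. Array 9 correlated best, however, with array 11, which is also Cy5 (0.70), and with the Cy5 arrays 3, 4 and 5 at 0.17, 0.17 and 0.37. It thus lies between the orientations rather than plainly nearer the other. Because of these correlations, results were also computed without arrays 9 and 10.

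Of the 178 member probes, 127 (125 genes) had values on at least 8 arrays, with at least 3 of each dye orientation, and were tested; 96 had values on all 11. At an adjusted p of 0.05 over all 5399 probes tested, 22 member probes were higher in the null embryos and 8 were lower, and 97 did not pass. The 22 make up 17.3% of the tested members, where 14.7% of all probes tested were called higher. The 8 make up 6.3%, where 14% of all were called lower. The share called higher thus lies near the background and the share called lower lies below it, with no test of either difference. Counts by family below have the same background, 14.7% higher and 14% lower. Counts in the lists of related genes have that of all 4812 genes tested, 14.5% higher and 14.3% lower (probes of a gene averaged). With the direction turned, the 22 would be lower and the 8 higher. The median ratio of the tested members was 0.06, against -0.01 over all probes tested, and 64.6% of members had a ratio above 0, against 48.7% of all.

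The changes were small. Ratios of tested members ran from -0.28 (Zic4) to 0.40 (Neurod6). Of the 127 tested members, 0 passed 1.5-fold in either direction, and of all 5399 probes tested 96 were called and beyond that size. Both shares are small, and their difference was not tested. All errors below are standard errors of the fit, and p-values measure the spread among these 11 embryos, with the wild-type pool as 1 control sample.

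**Figure D1:**
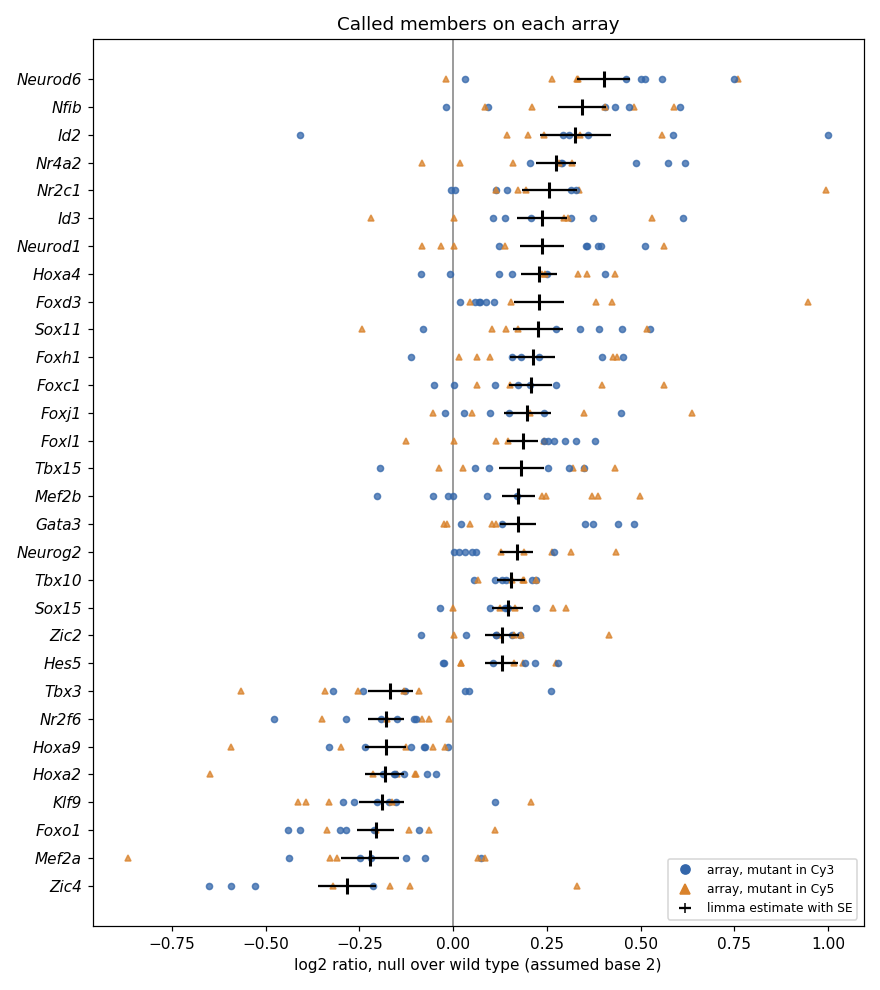
Log2 ratio of null over wild type (horizontal axis, base 2 assumed) of the 30 called member probes on each array, circles for arrays with the mutant in Cy3 and triangles for Cy5, with the estimate and its standard error as a black bar. Neurod6 has the highest estimate, 0.40, and Zic4 the lowest, -0.28, and for most genes single arrays cross 0.

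The proneural and neuronal helix-loop-helix genes held the highest member. Neurod6, a factor of postmitotic glutamatergic neurons of the forebrain, lay between -0.02 and 0.76 over the 11 arrays, with a median of 0.46. It was above 0.25 on every array but 1 and 4, where it was near 0. The estimate was 0.40 ± 0.07 (n = 11), 1.32-fold, with an adjusted p of 0.00102. Neurod1, which drives neuronal differentiation, had a lowest value of -0.08, a median of 0.36 and a highest of 0.56, and rose by 0.24 ± 0.06 (adjusted p = 0.00918). Its values near or below 0 all came from the Cy5 arrays 3, 4 and 9, while array 5, also Cy5, gave the highest.

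Neurog2, the proneural gene of cortical progenitors, was above 0 on all 11 arrays, from 0.001 to 0.44, and rose by 0.17 ± 0.04 (adjusted p = 0.00968). The Cy3 arrays 1, 2, 6, 7 and 8 were near 0, however, at 0.001 to 0.06, and array 10 was at 0.27. The means were 0.07 in Cy3 and 0.27 in Cy5. Neurod2, which shares targets with Neurod6 in cortical neurons, had a ratio of 0.08 ± 0.12 and did not pass; its values spread from -1.11 to 0.54. Neurog3, a factor of the endocrine pancreas, had a ratio of -0.11 ± 0.04 (adjusted p = 0.0561), and one of -0.13 without arrays 9 and 10, which passed (adjusted p = 0.0489). Neurog1 had no value on any array, and Neurod4 had values on 2.

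The inhibitors of helix-loop-helix factors moved in part. Id2 lay between -0.41 and 1.00, with a median of 0.31. Array 1 gave its lowest value, the only one below 0, and array 10 its highest. The estimate was 0.33 ± 0.09 (adjusted p = 0.0194). Id3 had a lowest value of -0.22 on array 4, a median of 0.30 and a highest of 0.61 on array 10, and rose by 0.24 ± 0.07 (adjusted p = 0.0181). Without arrays 9 and 10, Id3 had a ratio of 0.19 and an adjusted p of 0.0608, which misses the threshold. Id1 had a ratio of 0.00 ± 0.04 (adjusted p = 0.957).

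Among the Hes genes, Hes1 and Hes5 are repressors that carry out Notch signalling in progenitors. Hes5 rose by 0.13 ± 0.04 (adjusted p = 0.0442). Its call was lost in 7 of the 11 fits that leave out 1 array, and without arrays 9 and 10 (0.11, adjusted p = 0.111). Hes1 had a ratio of -0.04 ± 0.10 (n = 9) and Hes6 one of 0.07 ± 0.06. In the Notch pathway, 4 of 14 tested genes rose and 0 fell, with a median of 0.05, where 14.5% of all 4812 genes tested rose and 14.3% fell (probes of a gene averaged): the nuclear effector Rbpj (0.31), the glycosyltransferase Mfng (0.30), the protease Adam17, which can cut Notch (0.25), and Dtx1 (0.17). Notch1 had a ratio of 0.16 ± 0.07 (adjusted p = 0.087). Of 20 other helix-loop-helix genes, 5 rose and 2 fell (median 0.06), among them the Max partners Mxd4 (0.37) and Mxi1 (0.35), which were higher, and Ascl2 (-0.33) and the oligodendrocyte factor Olig1 (-0.37), which were lower.

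**Figure D2:**
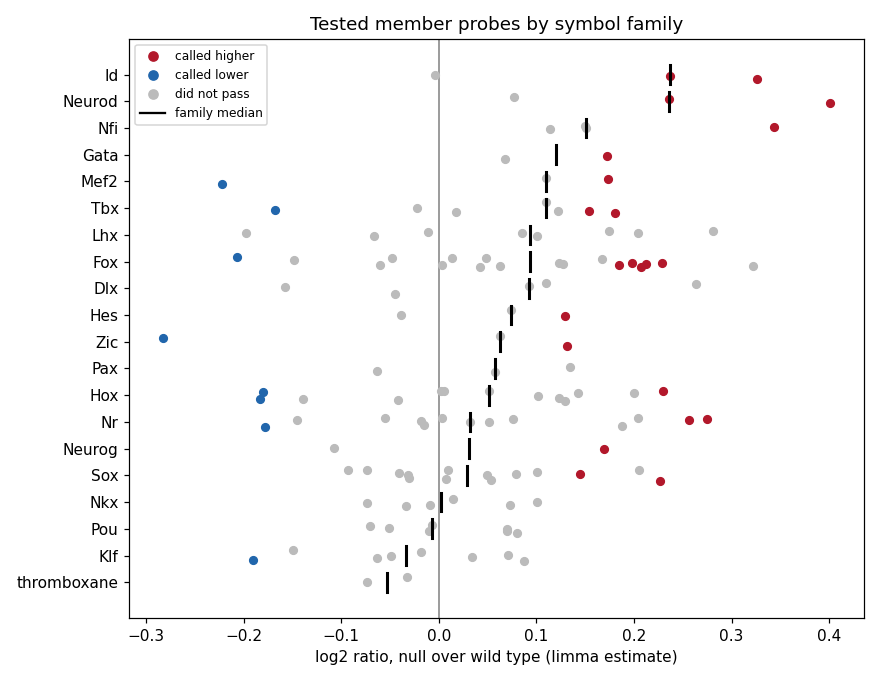
Estimated log2 ratio (horizontal axis) of each of the 127 tested member probes, by symbol family (vertical axis, ordered by the family median, black bars), red for probes called higher, blue for called lower and grey for those that did not pass. The Id and Neurod families have the highest medians, 0.24 each over 3 probes, and the Klf family has the lowest among families of transcription factors, -0.03 over 8.

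Of the nuclear factor I genes, which act in glial and late neuronal development, Nfib rose by 0.34 ± 0.06 (adjusted p = 0.00152). It lay between -0.02 and 0.60 with a median of 0.41, and the lowest values came from arrays 1, 2 and 11. The 2 dye orientations gave like means, 0.33 in Cy3 and 0.36 in Cy5. The other 3 members had ratios above 0 but did not pass: Nfia at 0.11 ± 0.09, Nfic at 0.15 ± 0.09 and Nfix at 0.15 ± 0.07.

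Among the 13 tested nuclear receptors of the Nr symbols, 2 rose and 1 fell. Nr4a2, an orphan receptor that marks the subplate and deep neurons of the lateral cortex and is also an activity-regulated gene, lay between -0.08 and 0.62, with a median of 0.29. Only array 4 was below 0, and arrays 1, 2 and 7, all Cy3, were highest. The estimate was 0.28 ± 0.05 (adjusted p = 0.00195), with means of 0.41 in Cy3 and 0.14 in Cy5. The orphan receptor Nr2c1 ranged from -0.01 to 0.99, with a median of 0.17, and rose by 0.26 ± 0.07 (adjusted p = 0.0181). Its highest value came from array 4, with the next at 0.34, and without that array the estimate was 0.18, which still passed; without arrays 1 and 6 the adjusted p was 0.0563. Nr2f6, an orphan receptor of the COUP family, was below 0 on all 11 arrays, from -0.48 to -0.01 with a median of -0.15, and fell by 0.18 ± 0.05 (adjusted p = 0.0138; 0.0564 without arrays 1 and 6). Its relative Nr2f2, a factor of caudal cortex and of interneurons, had a ratio of -0.15 ± 0.08 and did not pass. Its means were 0.00 in Cy3 and -0.29 in Cy5, with values of both signs in each orientation. The circadian repressors Nr1d1 (0.00) and Nr1d2 (0.03) and the glucocorticoid receptor Nr3c1 (-0.02) lay near 0.

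Of 15 nuclear receptors with other symbols, 5 rose and 1 fell (median 0.15). The retinoid X receptor Rxrg fell by 0.54 ± 0.09, lower on 9 of 10 arrays, a larger ratio than that of any member. Hnf4a (0.24), the retinoic acid receptor Rara (0.19) and Pparg (0.22) were higher. Of 10 cofactors of nuclear receptors, Ppargc1a, a regulator of mitochondrial genes, fell by 0.47 ± 0.08 on 10 of 10 arrays, Ncoa3 (0.28) and Nrip1 (0.15) rose, and 7 did not pass.

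The MEF2 factors, which are regulated by calcium signalling in neurons, went different ways. Mef2a fell by 0.22 ± 0.08 (adjusted p = 0.0479), over values from -0.87 to 0.09 with a median of -0.22. Array 4 was lowest, arrays 1, 9 and 11 were above 0, and the call was lost in 8 of the 11 fits without 1 array. Mef2b rose by 0.17 ± 0.04 (adjusted p = 0.0106), but only in 1 orientation, with a mean of 0.00 (-0.002) on the Cy3 arrays and 0.35 on the Cy5 arrays. It is the single called member whose means differ in sign. Mef2c, the member with the best known part in cortical neurons, was above 0 on 10 of 11 arrays at 0.11 ± 0.07 and did not pass. Of 8 tested regulators of these factors, 0 rose and 2 fell (median -0.06), both catalytic subunits of the calcium-dependent phosphatase calcineurin: Ppp3cb (-0.22) and Ppp3ca (-0.25).

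Forkhead genes were the largest family tested, with 5 of 18 probes higher and 1 lower. Foxo1, a target of insulin signalling, fell by 0.21 ± 0.05 (adjusted p = 0.00685), with values from -0.44 to 0.11 and a median of -0.21. Only array 3 was above 0. Foxd3, a neural crest factor, was above 0 on all 11 arrays and rose by 0.23 ± 0.07 (adjusted p = 0.0193; 0.068 without arrays 1 and 6), with means of 0.07 in Cy3 and 0.39 in Cy5. The Cy5 mean leans on array 4, where Foxd3 was 0.95 against a median of 0.09 over all arrays. Without that array its estimate was 0.16, which still passed. The others called higher were Foxh1, a SMAD partner (0.21), Foxc1, a factor of the meninges (0.21), Foxj1, which drives motile cilia (0.20), and Foxl1 (0.19). Foxj1 lost its call in 5 of the fits without 1 array, and Foxc1 in 1, without array 11. The highest ratio of the family, that of Foxj2 (0.32 ± 0.12, n = 9), did not pass (adjusted p = 0.0579), nor did Foxp2, a gene of deep cortical layers and of striatum and thalamus (-0.15 ± 0.08).

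Of the 14 tested Sox probes, 2 rose: Sox11, a factor of immature neurons, by 0.23 ± 0.07 (adjusted p = 0.0218), and Sox15 by 0.15 ± 0.04 (adjusted p = 0.0193). Sox11 had negative values on 2 arrays, and its call was lost without array 11. The progenitor factor Sox2 had a ratio of 0.10 ± 0.06 and Sox3 one of -0.09 ± 0.06. Sox9, of glia and progenitors, had 0.21 ± 0.12, with values from -0.82 on array 10 to 0.79 and 9 of 11 arrays above 0. Without array 10 its ratio was 0.32 (adjusted p = 0.00399), and without arrays 9 and 10 it was 0.30 (adjusted p = 0.00928), both past the threshold.

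The Hox family had the largest share of empty cells. Of its 28 probes 13 were tested, and 43.8% of its cells were empty, against 22.4% for all members and 17.3% for the table. Hoxa4 rose by 0.23 ± 0.05 (adjusted p = 0.00314), with a range of -0.09 to 0.43 and a median of 0.25. Arrays 1 and 6, whose wild-type channel carries the day 14 label, were its only values below 0. Hoxa2 fell by 0.18 ± 0.05 (adjusted p = 0.0169; 0.065 without arrays 1 and 6) and was below 0 on all 11 arrays, from -0.65 to -0.05 with a median of -0.15. Hoxa9 fell by 0.18 ± 0.06 (adjusted p = 0.0256), likewise below 0 on all arrays, from -0.59 to -0.02 with a median of -0.11. Array 4 was lowest for both, and Hoxa9 lost its call without array 3 or array 7. The other 10 did not pass, with ratios from -0.14 (Hoxa13) to 0.20 (Hoxb3).

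Of 7 tested T-box probes, Tbx15 (0.18) and Tbx10 (0.15) rose and Tbx3 fell by 0.17 ± 0.06 (adjusted p = 0.0493). Tbx10 was above 0 on all 11 arrays and had the smallest standard error of the called members, 0.04. Tbx3, a factor of limb and hypothalamus, lay between -0.57 and 0.26 with a median of -0.13; arrays 2, 8 and 10, all Cy3, were above 0. Its call was lost in 9 of the fits without 1 array, and that of Tbx15 in 7. T-box genes with other names include those of cortical neurons, and all 3 tested rose: Eomes, of intermediate progenitors (0.44 ± 0.06), Tbr1, of deep layer neurons (0.30 ± 0.05), and Mga (0.19 ± 0.05).

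Zic4, a gene of the cerebellum and dorsal midline, had values on 8 arrays, from -0.65 to 0.33 with a median of -0.27, and fell by 0.28 ± 0.08 (adjusted p = 0.0193). Array 4 alone was above 0, and the Cy3 mean of -0.50 was further from 0 than the Cy5 mean of -0.07. Only 3 of the fits without 1 array had enough values to test it, and it could not be tested without arrays 9 and 10. Its family member Zic2 rose by 0.13 ± 0.05 (adjusted p = 0.0432), lost in 9 of those fits, and Zic5 had a ratio of 0.06. Gata3 rose by 0.17 ± 0.05 (adjusted p = 0.0173; 0.0811 without arrays 1 and 6), with means of 0.30 in Cy3 and 0.04 in Cy5. Klf9, a gene induced by thyroid hormone and glucocorticoids, fell by 0.19 ± 0.06 (adjusted p = 0.0288), from -0.41 to 0.21 with a median of -0.20. Arrays 2 and 4 were above 0, the call was lost in 6 of the fits without 1 array, and without arrays 9 and 10 the adjusted p was 0.0844. The other 7 tested Klf probes had ratios from -0.15 (Klf12) to 0.09 (Klf4). Of 19 zinc finger regulators outside these families, 4 rose and 2 fell (median 0.08): the Hedgehog effector Gli1 fell by 0.57 ± 0.07, and Fezf2, of deep layer neurons (0.32), Myt1 (0.32) and Zbtb18 (0.28) rose.

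Of the 29 tested probes of the LIM homeobox, Dlx, Nkx, Pax and Pou families, 0 passed in the limma fit and 6 had an unadjusted p under 0.05. Over the whole array, 1545 of 5399 probes passed even the adjusted threshold, so 6 of 29 is no excess. The probe of smallest p within each of these 5 families was, in turn, that of Lhx2 (0.20 ± 0.08, adjusted p = 0.0594), a selector gene of the cortex, the antisense transcript Dlx6os2 (0.26 ± 0.11, adjusted p = 0.0835), the ventral gene Nkx2-2 (0.07 ± 0.05, adjusted p = 0.254), Pax7 (0.13 ± 0.07, n = 9, adjusted p = 0.143) and Pou5f1, the pluripotency factor (0.08 ± 0.06, adjusted p = 0.318). Over the arrays, Lhx2 lay between -0.31 and 0.58 (median 0.20), Dlx6os2 between -0.34 and 0.93 (median 0.35) and Nkx2-2 between -0.21 and 0.49 (median 0.06). Pax7 lay between -0.21 and 0.37 (median 0.14) and Pou5f1 between -0.17 and 0.41 (median 0.03). In each of the 5 the values lie on both sides of 0; for Lhx2, arrays 4 and 10 were the ones below it. Without array 4 the estimate for Lhx2 was 0.27 with an adjusted p of 0.0080, and without array 10 it was 0.24 with 0.026. In the limma fit with array weights, Lhx2 (0.28, adjusted p = 0.0015) and Dlx6os2 (0.29, adjusted p = 0.025) passed. Pax6, the progenitor factor, had a ratio of 0.06 ± 0.07.

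Of 31 homeobox genes of other names, 7 rose and 2 fell (median 0.07), with Msx3 (0.40) and Pitx3 (0.30) higher and Pbx3 (-0.62) and Isl1 (-0.30) lower. Among 4 tested cofactors of LIM proteins, Ldb2 rose by 0.17 and Lmo4, a gene of upper layers, had 0.13 ± 0.05 (adjusted p = 0.093).

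The 3 genes with several member probes show how far probes can differ. The 2 probes of Lhx6, a factor of migrating interneurons, had opposite signs, 0.28 ± 0.12 and -0.20 ± 0.08, and neither passed. Array 4 gave the highest value of the first, 1.75, and the lowest value of the second, and without it the ratios were 0.14 and -0.12. The 2 probes of Pou2f2 had the same ratio of -0.01. Of those of Nkx1-2, one had a ratio of -0.03 and the other a single value of -0.23. The symbol rule also caught the thromboxane receptor Tbxa2r (-0.07 ± 0.10, adjusted p = 0.627, from -1.20 to 0.21 with a median of 0.07) and the synthase Tbxas1 (-0.03 ± 0.05), which are no transcription factors.

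In the limma fit over all arrays, 0 members had a called dye term (32 of 127 at an unadjusted p under 0.05, against 22.4% of all probes), and 0.0741% of all probes tested (4 probes) had one. Without arrays 9 and 10, 12 of 121 members (9.92%) did, where 11.3% of all probes did. Those arrays were left out because of their correlations with arrays of the other orientation, so this rise follows from the choice and is given as a description only. In 10 of the 12, ratios were lower with the mutant in Cy5: the cortical POU factor Pou3f3, Pou6f1, the neural progenitor gene Sox1, Sox12, the interneuron genes Dlx2 and Dlx5, Neurod2, Nfia, Zic5 and Nr2c2. Mef2b and Tbx21 went the other way.

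Pou3f3, named after its values were seen, had the largest such term, -0.56 (adjusted p = 0.0057). Its values were 0.49, 0.65, 0.41, 0.32 and 0.48 on the Cy3 arrays 1, 2, 6, 7 and 8 and -0.62 on array 10. They were -0.78, -1.02 and -0.77 on the Cy5 arrays 3, 4 and 5, 0.48 on array 9 and -0.05 on array 11. Pou6f1, Sox1 and Sox12 had the same signs on all of these arrays but array 11, where they were above 0. For these genes an estimate near 0 is thus the mean of large ratios of opposite sign. Whether labels, dye or embryos set this split was not tested.

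**Figure D3:**
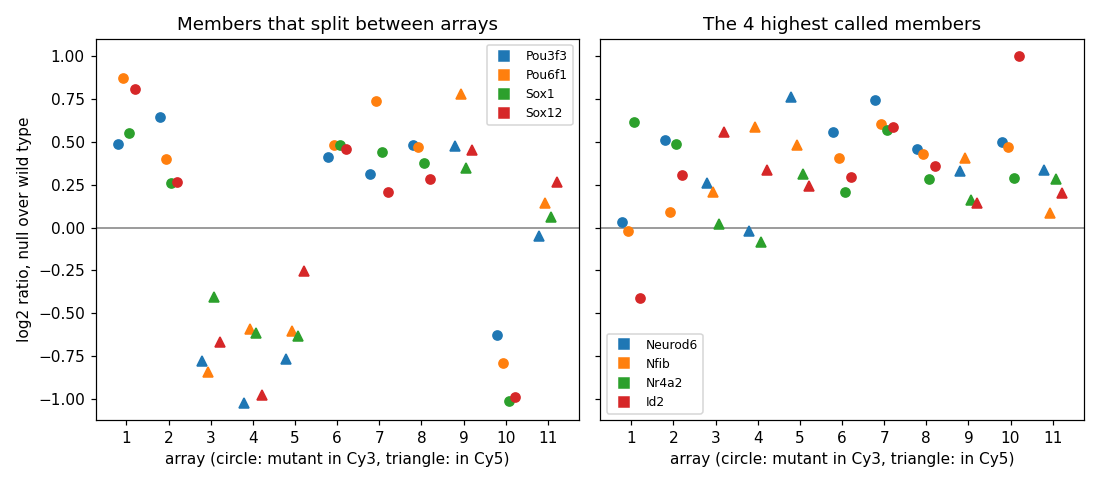
Log2 ratio (vertical axis, null over wild type) on each of the 11 arrays (horizontal axis, circles for the mutant in Cy3, triangles for Cy5). Pou3f3, Pou6f1, Sox1 and Sox12 (left) are below 0 on arrays 3, 4, 5 and 10 and above 0 on arrays 1, 2, 6, 7, 8 and 9, while Neurod6, Nfib, Nr4a2 and Id2 (right), the 4 highest called members, are above 0 on most arrays of both kinds.

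Of the 30 called members, 29 had means of the same sign in both orientations, which a call on the mean over both favours. All 29 that could be fitted without arrays 9 and 10 kept their direction there, 24 of them past the threshold. The 5 that no longer passed were Klf9, Tbx3, Hes5, Zic2 and Id3, while Sox9 and Neurog3 came to pass. Without arrays 1 and 6, whose wild-type RNA one label gives as day 14, 14 of 29 called members no longer passed, at adjusted p from 0.0545 (Hoxa9) to 0.22 (Tbx3). Besides these they were Foxc1, Foxd3, Foxj1, Gata3, Hes5, Hoxa2, Klf9, Mef2a, Nr2c1, Nr2f6, Sox11 and Tbx15. All 14 kept their sign, and their ratios moved both ways, from -0.22 to -0.26 for Mef2a and from -0.17 to -0.11 for Tbx3. Calls over the whole array fell as well, from 1545 to 975. Foxp2 (-0.22) and Mef2c (0.18) came to pass there, and Zic4 had too few values. When single arrays were left out, all 30 kept their sign in every fit that could test them and 20 passed in each. For Zic4, which is among the 20, those fits left out only arrays without a value for it. None of its values was removed, so its stability is unknown. The other 10, which were not called in at least 1 fit without 1 array, were Mef2a, Klf9, Hoxa9, Tbx3, Hes5, Zic2, Tbx15, Foxj1, Foxc1 and Sox11. Conversely, 16 probes that did not pass over all arrays did so in at least 1 of these fits: Foxp2 and Mef2c without array 1, Tbx4 without array 2, Dlx5 without array 3, Dlx1, Hoxa13, Nkx2-1 and Lhx2 without array 4, Dlx6os2, Foxj2, Lhx4 and the second probe of Lhx6 without array 5, Foxa3 and Hoxb3 without array 9, and Foxm1 and Sox9 without array 10. Of these, Foxj2 also passed without array 7, Lhx6 without array 9, and Hoxb3 and Lhx2 without array 10. The ratios of Dlx1 (0.09 to 0.14), Nkx2-1 (-0.07 to -0.16), Mef2c (0.11 to 0.18) and Sox9 (0.21 to 0.32) moved by over 1.5 times there.

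**Figure D4:**
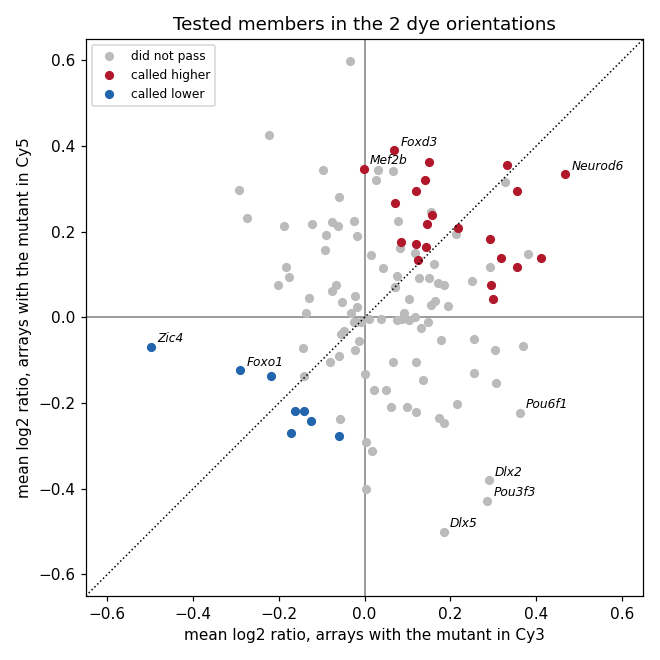
Mean log2 ratio of each tested member on the arrays with the mutant in Cy3 (horizontal axis) and in Cy5 (vertical axis), red for called higher, blue for called lower, grey for those that did not pass; on the dotted line both means are equal. Called members lie in the quadrants of equal sign except Mef2b (-0.002 and 0.35), while Pou3f3 (0.29 and -0.43) and Dlx5 (0.18 and -0.50) are among those with opposite means.

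The untested members were 51 probes, of which 4 had no value, 32 had values on 1 to 4 arrays and 15 on 5 to 7. The 15 were the nuclear receptors Nr1i2, Nr1i3 and Nr1h4, the forkhead genes Foxl2, Foxn1 and Foxa2, the T-box genes Tbx2, Tbx6 and Tbx20, Pax2, Nkx2-9, Hoxb9, Hoxd10, Gata1 and Sox13. Most act outside the cortex, in liver, gonad, thymus, mesoderm, blood or spinal cord. Their medians over the arrays lay between -0.36 (Hoxd10) and 0.37 (Nr1i3). Where array 4 measured an untested member, the value was high: 12 such probes had a median of 1.26 there, from 0.48 to 1.74. The same holds for the 185 untested probes of the whole array with a value on array 4 (median 1.03), whereas their medians on the other arrays lay between -0.20 and 0.34.

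Some markers of other cells were called as well. Of all 4812 genes tested, 14.5% were called higher and 14.3% lower (probes of a gene averaged). No marker list was tested against these shares. Whether any of the lists below shifted as a set is therefore unknown. Of 15 tested markers of microglia and macrophages 11 rose and 3 fell (median 0.55, array medians 0.34 to 0.54), and of 10 of the meninges and choroid plexus 5 rose and 1 fell (median 0.24, array medians -0.08 to 0.36), Foxc1 itself being in the second list. Astrocyte markers rose in 5 of 12 and fell in 3 (median 0.11, array medians -0.06 to 0.29), and cell cycle genes rose in 8 of 23 and fell in 1 (median 0.15, array medians 0.02 to 0.20). Markers of striatum and thalamus, which border the neocortex, rose in 0 of 11 and fell in 3 (median -0.06, array medians -0.42 to 0.15), with Foxp2 in that list. Of the 3, Ppp1r1b had the largest ratio, -0.71 ± 0.05, and was lower on all 11 arrays, while 8 of the list did not pass. Erythroid markers rose in 0 of 5 and fell in 1 (median -0.11), and those of endothelium and pericytes rose in 3 of 13 and fell in 1 (median 0.08). The part of these cells in the ratios of the members was not tested.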

How the data were processed

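Neocortex RNA of 11 null mutant embryos was hybridised against pooled wild-type RNA. Values are the deposited log ratios, read as log2; for the authors' log base, background correction, normalization and direction no source used here gives a statement, and each column is centred near 0. The mutated gene itself is not reported here. Probes were named through the platform's annotation and RefSeq (GRCm38.p6).

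Mean ratio and dye term were estimated by limma 3.58.1 (R 4.3.3) for the 5399 probes measured on 8 or more arrays, 3 or more per orientation. The mean was tested against 0, two-sided, with Benjamini-Hochberg adjustment at 0.05. Members and lists were chosen with earlier results of these data known. Every called member is named, with array values for the 8 highest and 8 lowest; each family without a call gives its smallest p, each list up to 4 calls of smallest p, and other genes were chosen after their values were seen. In simulated data of the null against wild type comparison over 5399 probes, the fit recovered 36% of log2 changes of 0.2, 86% of those of 0.3, 96% of those of 0.5 and all (100%) of those of 1, with 9 false among 168 calls. Far fewer probes were changed there than were called in the data (1545), and errors were drawn independently for each array. These shares therefore need not hold for the real fit. Alternatives changed the arrays, scaling, dye term, filter, variances and threshold; leaving out arrays 9 and 10 was added after seeing the data.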

Additional observations from a re-analysis of the deposited data

How the results depend on the processing

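Members called higher, 22 in the main setting, numbered 8 at an adjusted p of 0.01, 12 on only the Cy3 arrays, 3 on only the Cy5 arrays, 15 without arrays 1 and 6, and 18 to 24 when 1 array was left out. They numbered 29 with array weights and 27 with arrays scaled to a common spread, where calls over the whole array rose to 1882 and 1708. Those called lower, 8 in the main setting, numbered 1 at 0.01, 5 without the dye term, 2 on only the Cy5 arrays, 2 without arrays 1 and 6, and 3 to 7 when 1 array was left out, the fewest without array 7. Members with a called dye term numbered 12 with array weights, 3 with arrays scaled to a common spread, 12 without arrays 9 and 10, and 0 to 7 when 1 array was left out, the 7 without array 10. Probes called over the whole array, 1545 in the main setting, numbered 811 at 0.01, 468 on only the Cy5 arrays and 975 without arrays 1 and 6, and 1170 to 1572 when 1 array was left out. Of the 30 called members, 11 were still called on only the Cy3 arrays and 2 on only the Cy5 arrays, so these counts include other genes. Mef2b turned to -0.002 on only the Cy3 arrays, and no other called member reversed under any alternative run. A stricter threshold lowers the number of calls by construction; the cause of the other shifts was not tested. Centring on the median and robust variances kept all 30 calls. Each ratio already sets a null embryo against the wild-type pool on the same array, and no further pairing was used. The number of arrays limits the precision, and without intensities no filter on dim probes could be made, so signal over background is unknown. A change of 0.2 on the log2 scale was recovered in 36% of simulated probes. That simulation made 168 calls, against 1545 in the data, and drew independent errors, so the share need not hold for the real fit. A member that did not pass may still differ by that much.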
